A study of Mus musculus with 4 samples.

Results

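The regions described here are the tall H3K27ac peaks of a mouse pre-B leukemia culture that also held PHF6. A peak is a stretch of the genome where immunoprecipitated DNA piled up. Members were H3K27ac peaks on chromosomes 1 to 19 with a summit height of 200 or more, at least 1 bp of overlap with a PHF6 peak and no overlap with an H3K27me3 peak. Summit height is the authors' whole-number pileup of DNA fragments at the highest point of a peak. By this rule 6794 of 31732 H3K27ac peaks on these chromosomes were members (21.4%, 95% exact binomial interval 21.0 to 21.9).

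The cells were C57BL/6J mouse pre-B acute lymphoblastic leukemia (ALL) cells that were null for p19 and transformed with the BCR-ABL1 fusion kinase. All 4 libraries came from this kind of cell: a PHF6, an H3K27ac and an H3K27me3 chromatin immunoprecipitation (ChIP) and an input without antibody. Each antibody had 1 library, and the labels name no untransformed or PHF6-deficient cells, so no value below has a replicate error and no test between conditions was possible. Intervals cover counting error over peaks only, and neighbouring peaks are not independent. The depth of the libraries is unknown, and the input library was not analysed here. Gene names and sequence are not given, because the peaks are on build mm9 and the gene tables at hand are on GRCm38. For the same reason the B-lineage identity of the cells was not checked against marker genes.

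PHF6 is a nuclear protein with PHD-type zinc fingers that binds chromatin and associates with the NuRD chromatin remodelling complex, and its gene is recurrently mutated in human T-cell ALL. Acetylation of lysine 27 of histone H3 is written by the acetyltransferase CBP and its close relative, and marks active promoters and enhancers. Trimethylation of the same lysine is written by Polycomb repressive complex 2 and marks silent genes. A given lysine cannot carry both at once. The study's title frames PHF6 as a regulator of B-cell identity, and the lists show where PHF6 lay relative to these marks.

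Members were chosen by H3K27ac summit height and by which peaks they overlapped, so these values are a description. Their H3K27ac heights ranged from 200 to 389, with a median of 304 (quartiles 263 and 334). Peaks of this height made up 23.2% of H3K27ac peaks on these chromosomes, 7352 in all. Of these, 7037 overlapped PHF6 (95.7%, 95.2 to 96.2), against 72.2% of H3K27ac peaks of any height. Another 243 tall peaks with PHF6 also overlapped H3K27me3 and were left out. A further 4 tall peaks had H3K27me3 without PHF6, and 311 had neither. The limit of 200 did not fall at a gap in the values. The 30 members at a height of exactly 200 had a median PHF6 summit height of 31 (quartiles 28 and 34), and the 21 peaks 1 below it that met the rest of the rule also had 31 (27 and 37). Nearly all members, 6631 of 6794 (97.6%, 97.2 to 98.0), had an H3K27ac score of 3000 or more, near the ceiling of the authors' score. The share was 25.8% over all H3K27ac peaks on these chromosomes and 72.3% over the 311 tall peaks with neither PHF6 nor H3K27me3. The rule asked for tall peaks, so the members' high share by score is not independent of the rule.

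PHF6 stood high on the members. The tallest PHF6 summit on a member had a median height of 38, with quartiles of 32 and 44 and a range of 16 to 377. Intermediate H3K27ac peaks with PHF6, of height 50 to under 200 and without H3K27me3, had a median PHF6 height of 28 (24 and 33, n = 3587 peaks). Low H3K27ac peaks with PHF6, under 50, had 26 (23 and 30, n = 11531 peaks). A member held the taller PHF6 summit in 80.2% of pairs with an intermediate peak and in 87.6% of pairs with a low peak, with ties split evenly. PHF6 height was not used by the rule, which asked only whether a PHF6 peak was present.

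In ranks of the PHF6 list, the members' tallest summits had a median percentile of 94.0 (quartiles 87.7 and 97.2). The top 10% of PHF6 heights supplied the summit of 4788 members (70.5%, 69.4 to 71.6), against 33.1% over all H3K27ac peaks with PHF6. Only 63 members (0.927%, 0.713 to 1.18) had a PHF6 summit below 22, the median height of the PHF6 list, against 12.2% of all H3K27ac peaks with PHF6. Seen from PHF6, 7362 of its 76703 peaks on chromosomes 1 to 19 lay on members, or 9.60%. In the tallest 10% of PHF6 peaks, with heights from 34 to 400, the share was 61.8% (60.7 to 62.9). In the next 10% it was 19.5% (18.7 to 20.4) and in the lowest 10% 0.222% (0.129 to 0.355). At the very top the share was lower again, at 40 of the 100 tallest PHF6 summits (30.3 to 50.3%).

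The authors' PHF6 score ranked the peaks differently from the height. The highest-scoring PHF6 peak on a member had a median score of 259 (quartiles 160 and 416). The medians were 196 (110 and 367) on intermediate and 262 (149 and 462) on low H3K27ac peaks. A member held the higher score in 59.1% of pairs with an intermediate peak and in 49.5% of pairs with a low peak. The higher standing of PHF6 on members over low H3K27ac peaks was thus present in height and absent in score.

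Within the members PHF6 height was higher where H3K27ac height was higher. The median PHF6 height was 32 in members with H3K27ac heights of 200 to 224 (n = 583 peaks). It was 36 at 275 to 299 (n = 1040 peaks), 41 at 325 to 349 (n = 1367 peaks) and 51 in the 66 members of 375 or more. Below the limit it moved little, from 26 at H3K27ac heights under 25 to 31 at 175 to under 200. Across the 6794 members Spearman's rho between PHF6 and H3K27ac height was 0.50. It lay between 0.41 and 0.58 on single chromosomes and was 0.43 over the 3852 members 1500 to 2500 bp wide. For intermediate peaks rho was 0.17 (n = 3587 peaks) and for low peaks 0.11 (n = 11531 peaks). H3K27ac height had quartiles of 72 and 151 in intermediate and 17 and 26 in low peaks, against 263 and 334 in members. The spread of height was thus narrower in low peaks but not by quartiles in intermediate ones. The points share 2 libraries of the same cells, and neighbouring peaks share their surroundings.

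**Figure D1:**
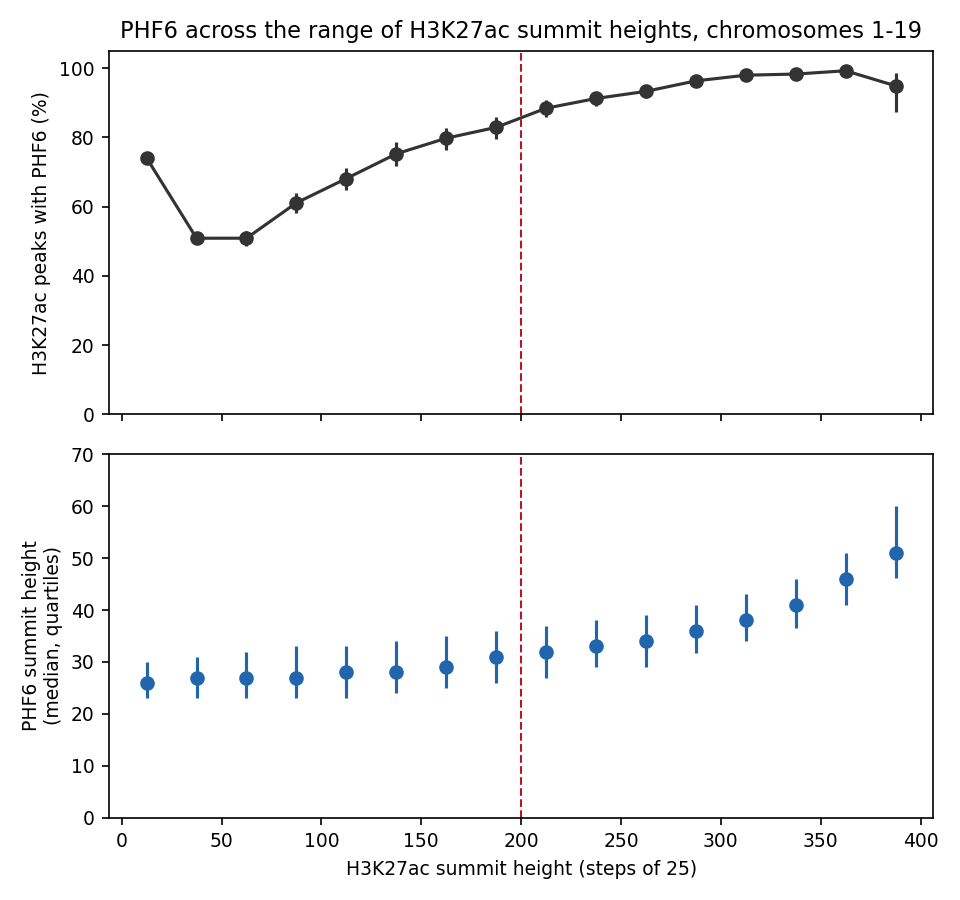
Top, percent of H3K27ac peaks that overlapped PHF6 (points, with 95% exact binomial intervals) against H3K27ac summit height in steps of 25, H3K27me3 overlap ignored. Bottom, PHF6 summit height on peaks with PHF6 and without H3K27me3 (median and quartiles). The dashed line marks the limit of 200, right of which the median PHF6 height goes from 32 to 51.

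The H3K27ac and PHF6 summits lay close together on most members. Between the H3K27ac summit and the tallest PHF6 summit there were 67 bp in the median member (quartiles 26 and 173), against 115 bp (36.5 and 530) on intermediate and 142 bp (52 and 427) on low peaks. It was within 100 bp on 4231 members (62.3%, 61.1 to 63.4), against 48.0% over all H3K27ac peaks with PHF6. The share was 46.8% (45.2 to 48.5) on intermediate and 40.5% (39.6 to 41.4) on low peaks. Summits over 500 bp apart made up 9.35% (8.66 to 10.1) of members, 25.9% of intermediate and 22.5% of low peaks. Among peaks 1500 to 2500 bp wide the shares within 100 bp were 66.2% (64.7 to 67.7) for members, 46.5% (43.9 to 49.0) for intermediate and 26.2% (24.1 to 28.3) for low peaks. PHF6 peaks themselves had like widths on the 3 classes, with medians of 1577, 1519 and 1551 bp. The classes were cut by H3K27ac height, and whether summit positions are less exact in low peaks was not tested.

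The summit distance depended little on how tall the member was. Between H3K27ac heights of 200 and 374 its median stayed between 64 and 78 bp, and in the 66 members of 375 or more it was 46.5 bp. By chromosome the share within 100 bp ranged from 53.7% (47.4 to 59.9, n = 259 members) on chromosome 19 to 70.3% (64.2 to 76.0, n = 246 members) on chromosome 14. The PHF6 summit lay at the higher coordinate of the 2 in 50.3% of members and at the lower in 49.1%.

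**Figure D2:**
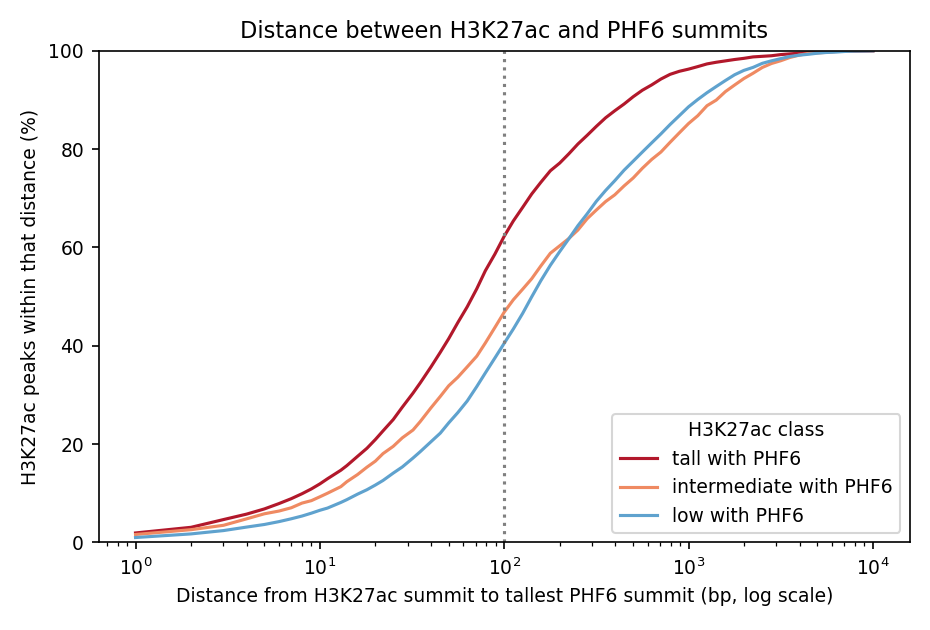
Cumulative percent of H3K27ac peaks whose tallest PHF6 summit lay within a given distance (bp, log scale) of the H3K27ac summit, for the 6794 tall, 3587 intermediate and 11531 low peaks with PHF6. At the dotted line of 100 bp the curves stand at 62.3%, 46.8% and 40.5%.

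A member was typically a broad acetylated stretch with a narrower PHF6 peak inside it. Members were 2234 bp wide in the median (quartiles 1853 and 2883, range 812 to 19097), against 2008 bp for intermediate and 1021 bp for low peaks with PHF6. PHF6 peaks covered a median of 73.8% of a member's bases, against 82.9% of an intermediate and 100% of a low peak. The PHF6 peak with the tallest summit lay wholly inside 5328 members (78.4%, 77.4 to 79.4), against 34.7% over all H3K27ac peaks with PHF6. It was inside 47.4% of intermediate and 6.10% of low peaks. A wider H3K27ac peak has more room for a PHF6 peak, so these shares also depend on the widths. The summit of that PHF6 peak was inside the H3K27ac peak at 6747 members (99.3%, 99.1 to 99.5), against 91.5% over all H3K27ac peaks with PHF6. Most members, 6305, held 1 PHF6 peak. Those with 2 or more numbered 489 (7.20%, 6.59 to 7.84), against 5.11% over all H3K27ac peaks with PHF6. The share was 11.7% (10.6 to 12.8) on intermediate and 1.73% on low peaks. At widths of 1500 to 2500 bp it was 1.22% in members, 3.69% in intermediate and 4.50% in low peaks. Members were thus below intermediate peaks with and without the width window, while their order against low peaks turned with it. Members rarely shared a PHF6 peak: 13 PHF6 peaks spanned 2 or more members, 31 members in all.

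The widest members carried several PHF6 peaks. The widest lay on chromosome 14 at 26330015 to 26349111 (band qA3), spanned 19097 bp and had the most PHF6 peaks, 6. Its tallest PHF6 summit, of height 41, was 8934 bp from the H3K27ac summit, of height 242. On chromosome 7 at 108598652 to 108616291 (qE3) a member of 17640 bp with H3K27ac height 212 held 5 PHF6 peaks, the tallest at 44. Other wide members had their summits together. On chromosome 12 at 113849586 to 113868344 (qF1) a member of 18759 bp held 4 PHF6 peaks, and the summits of height 353 (H3K27ac) and 40 (PHF6) were 1 bp apart. On chromosome 19 at 4288960 to 4306870 (qA) a member of 17911 bp, also with 4 PHF6 peaks, had H3K27ac height 336 and PHF6 height 40, again 1 bp apart. The other wide member, on chromosome 10 at 80752230 to 80769975 (qC1), held 3 PHF6 peaks with the tallest summit, 42, at 12117 bp from the H3K27ac summit, 338. In these 5 the PHF6 height stayed between 40 and 44, between the members' median of 38 and their upper quartile of 44. The remaining members among the 5 with most PHF6 peaks held 4 each, in band qB1 of chromosome 17 at 35182102 to 35189968 and in chromosome 3 at 87940287 to 87955777 and 89187857 to 89200907 (both qF1).

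The tallest H3K27ac summits did not carry the tallest PHF6 summits. The highest member by H3K27ac was on chromosome 15 at 81414726 to 81418170 (qE1), with H3K27ac height 389, PHF6 height 71 and 212 bp between the summits. Next came chromosome 2 at 72816206 to 72819602 (qC3), with heights of 388 and 57, and chromosome 7 at 133644702 to 133647871 (qF3), with 387 and 73. Over the 10 members tallest by H3K27ac, PHF6 heights ran from 47 to 123. All 10 were above the upper quartile of 44 for the members.

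Members with the lowest PHF6 heights were not all marginal overlaps. The 2 lowest had PHF6 height 16 with summits far apart. One was on chromosome 3 at 95754163 to 95760592 (qF2.1), with H3K27ac height 203 and 4629 bp between summits. The other was on chromosome 12 at 77866039 to 77867695 (qC3), with H3K27ac height 247 and 825 bp between summits. On chromosome 4 at 116478778 to 116481341 (qD1) a PHF6 peak of height 17 covered 1.44% of the member, whose H3K27ac height was 293. By contrast, on chromosome 11 at 5777185 to 5779243 (qA1) the summits of height 213 and 17 lay 20 bp apart. On chromosome 19 at 8911137 to 8913412 (qA) those of height 219 and 18 lay 6 bp apart.

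A small group of members stood far above the rest in PHF6. PHF6 height was 100 or more on 45 members (0.662%, 0.484 to 0.885), a limit chosen after the values were seen, and 60 to 99 on 120 more. This share is near the 0.467% of all H3K27ac peaks with PHF6, and intermediate peaks had 1.14% (0.821 to 1.55), so such heights were not particular to the members. The 45 fell apart by summit distance. In 12 the summits were within 50 bp, in 2 between 50 and 150 bp, in 21 between 150 and 400 bp and in 10 farther. Over all members, 62.3% had summits within 100 bp. The share was highest, 65.1% (63.0 to 67.2), at PHF6 heights of 25 to 34. It was 60.3% at 45 to 59 and 50.8% (41.6 to 60.1) at 60 to 99. Of the 45 members, 26.7% (14.6 to 41.9) had summits within 100 bp.

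The 12 members with coincident summits had low H3K27ac scores for their height. Their scores ran from 373 to 2392, all under 3000, while only 163 of all 6794 members had a score under 3000. In 9 of the 12 the PHF6 height exceeded the H3K27ac height, though heights of different libraries are not on a common scale. All 11 members with an H3K27ac score under 1500 had PHF6 heights of 100 or more. The tallest PHF6 summit of any member was among them, on chromosome 16 at 11143524 to 11144568 (qA1). There PHF6 had height 377 and H3K27ac height 360, with summits 3 bp apart and an H3K27ac score of 1478.5. On chromosome 11 at 108872564 to 108873933 (qE1) the heights were 343 and 317, 4 bp apart, with a score of 656. On chromosome 5 at 147072273 to 147073409 (qG3) they were 286 and 250, 6 bp apart, with a score of 676. On chromosome 9 at 56071192 to 56072074 (qB) they were 286 and 260, 5 bp apart, with a score of 1176, and on chromosome 16 at 57390747 to 57391957 (qC1.1) 291 and 234, 31 bp apart, with a score of 566. Chromosome 17 at 13743373 to 13746563 (qA1) had heights of 344 and 257, 2 bp apart, a score of 2381 and a PHF6 score of 3100. Whether the same positions were high in the input was not tested.

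The other very tall PHF6 members had summits over 50 bp apart by this split, most often between 150 and 400 bp. In the 21 with summits over 150 and up to 400 bp apart the median distance was 243 bp, and 17 of them lay between 180 and 310 bp. The PHF6 summit was at the higher coordinate in 12 and at the lower in 9. Their median H3K27ac score was 3100, and 6 of the 21 scored under 3000. On chromosome 17 at 85488674 to 85490796 (qE4) PHF6 had height 371 and H3K27ac 250, 178 bp apart. On chromosome 2 at 72311864 to 72315776 (qC3) the heights were 359 and 330, 203 bp apart. On chromosome 11 at 58751117 to 58753026 (qB1.3) they were 331 and 335, 271 bp apart. Beyond 400 bp, chromosome 4 at 118219417 to 118221582 (qD2.1) had heights of 332 and 253, 560 bp apart.

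On chromosome 11 (qC), 4 of these members lay close together with nearly the same geometry. They started at 87255798, 87261180, 87274878 and 87284023. Their H3K27ac heights were 338, 337, 331 and 329, and their PHF6 heights 128, 128, 153 and 137. The PHF6 summit was 234, 234, 243 and 240 bp from the H3K27ac summit, on the same side each time. Whether these stretches share sequence, and so reads, was not tested.

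**Figure D3:**
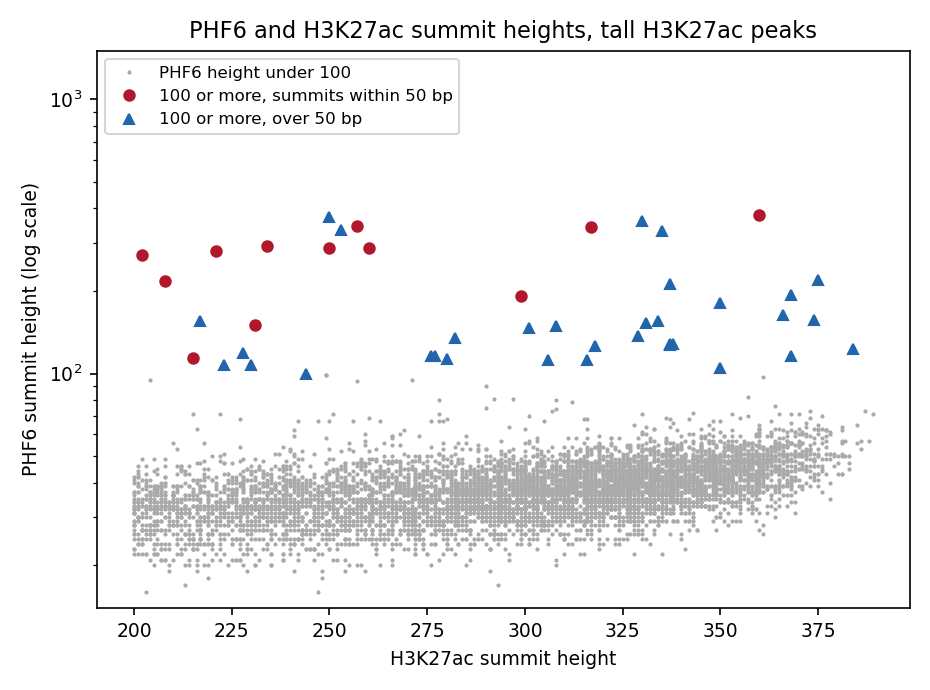
PHF6 summit height (log scale) against H3K27ac summit height for the 6794 members. Grey points are members with PHF6 under 100; of the 45 above, circles have summits within 50 bp (12 members) and triangles have them over 50 bp apart.

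Most members had no other member close by. Of 6135 runs of members, joined at gaps of up to 12500 bp, 5628 were a lone member (82.8% of members). Another H3K27ac peak of any height lay within 12500 bp of 3486 members (51.3%, 50.1 to 52.5), against 63.2% of all H3K27ac peaks. The share was 70.7% (69.2 to 72.2) for intermediate and 67.1% (66.2 to 67.9) for low peaks with PHF6. Tall peaks without PHF6 had 48.2% (42.6 to 53.9), an interval that holds the members' value. Among peaks 1500 to 2500 bp wide the shares were 44.8% (43.2 to 46.3) for members, 68.5% (66.1 to 70.8) for intermediate and 80.1% (78.2 to 82.0) for low peaks. They were 45.7% (38.6 to 52.9) for tall peaks without PHF6, so a low share with a neighbour was not particular to members. A second tall peak was within 12500 bp of 18.9% (18.0 to 19.9) of members, against 21.9% of all H3K27ac peaks. The gap to the next H3K27ac peak had a median of 11.9 kb (quartiles 3.42 and 30.6) and the gap to the next tall one 43.7 kb (17.3 and 102).

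From 1 to 50 kb out, PHF6 summits were sparser around members than around intermediate and low peaks with PHF6. They were denser there than around tall peaks without PHF6. That class was chosen for having no PHF6 overlap, so its inner values and its gap to the nearest PHF6 peak are not independent of the choice. For scale, the autosomes held 76703 PHF6 peaks in 2472 Mb. Per peak there were 3.14 PHF6 summits per kb within 100 bp of the H3K27ac summit and 0.634 per kb between 100 and 250 bp. At 1 to 2 kb the value was 0.0415 per kb, lower than the 0.0848 per kb at 20 to 50 kb. Around intermediate peaks the values were 0.114 and 0.117 per kb, and around low peaks 0.147 and 0.124 per kb. Peaks of 1 list cannot overlap, so the inner values also depend on the widths of the PHF6 peaks. At 5 to 10 kb members had 0.0796, intermediate peaks 0.134 and low peaks 0.149 PHF6 summits per kb. Tall H3K27ac peaks without PHF6 had 0.0559 there, and their nearest PHF6 peak was a median of 11.1 kb away.

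**Figure D4:**
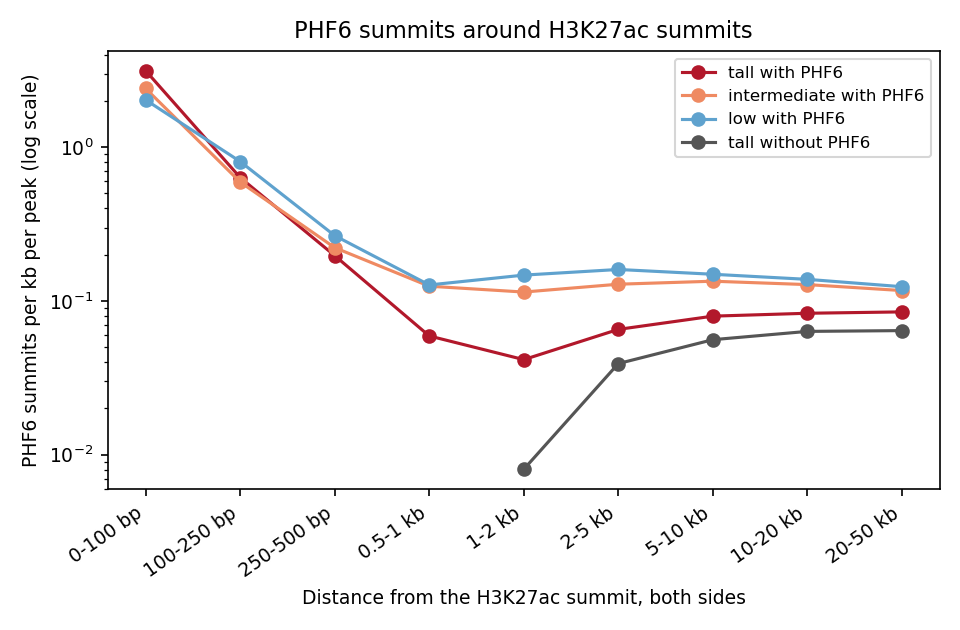
PHF6 summits per kb and per H3K27ac peak (log scale) by distance from the H3K27ac summit, both sides counted. Members (tall with PHF6) fall from 3.14 within 100 bp to 0.0415 at 1 to 2 kb and reach 0.0848 at 20 to 50 kb; tall peaks without PHF6 have no summit within 1 kb, so no point is drawn there.

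The longest run of members had a regular spacing. It lay on chromosome 4 from 88405191 to 88453044 (qC4) and held 13 members in 47.9 kb. One more H3K27ac peak in the run missed the limit by 1. Outside the run, at -1.737 and -4.389 kb from its start, lay H3K27ac summits of height 93 and 21, also below the limit. H3K27ac heights of the members ran from 210 to 279. The 13 spacings between neighbouring H3K27ac summits within the run had a median of 2955 bp. Of these, 12 were between 2750 and 3027 bp. The other was 10300 bp. Only 4 PHF6 peaks covered the run, 5202, 13045, 11188 and 11323 bp wide, with summit heights of 56, 71, 67 and 67. Each of these PHF6 summits lay within 72 bp of an H3K27ac summit, at 72, 64, 45 and 32 bp. Whether the repeated spacing goes with repeated sequence was not tested.

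**Figure D5:**
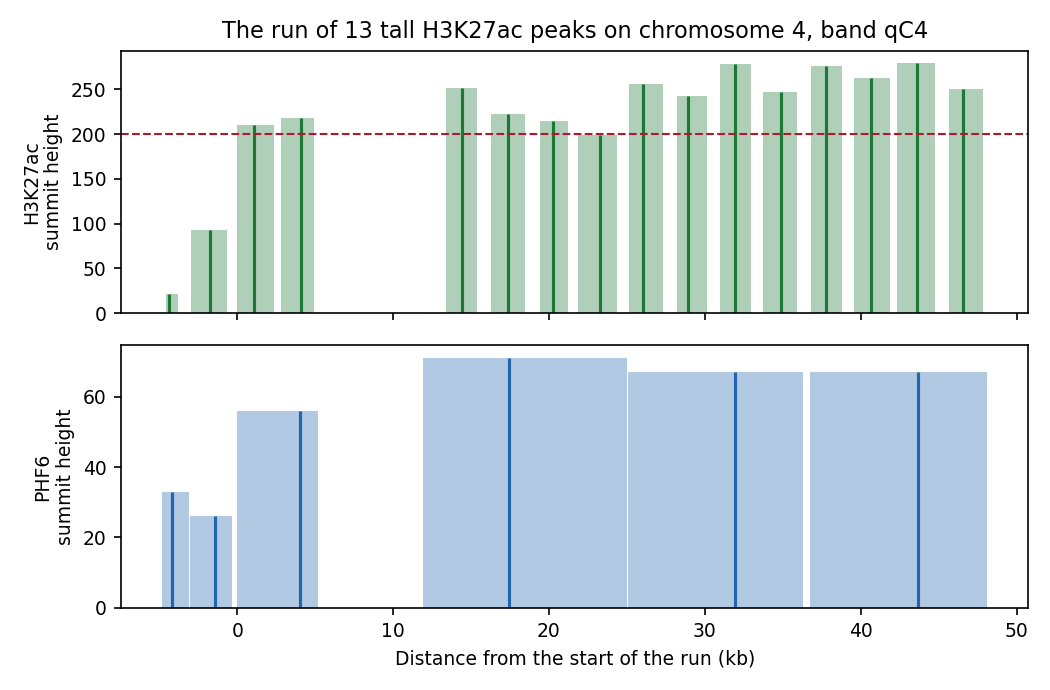
H3K27ac peaks (top) and PHF6 peaks (bottom) across the run of 13 members on chromosome 4 band qC4, with 10 kb on either side. Boxes span the called peaks, lines mark summits and both reach up to the summit height; the dashed line is the limit of 200, which 13 of 14 H3K27ac peaks in the run pass.

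Another 2 runs held 7 members each. On chromosome 12 from 55795663 to 55840604 (qC1) the PHF6 heights were 79, 135, 95, 107, 107, 116 and 113, all well above the upper quartile of 44. H3K27ac heights ran from 223 to 312 and the summits lay between 188 and 1154 bp apart. Of the 7, 6 had H3K27ac scores under 3000. On chromosome 13 from 23621723 to 23680281 (qA3.1) the PHF6 heights were 54, 56, 54, 116, 56, 74 and 43, with H3K27ac heights from 227 to 308. Members here were wide, from 3356 to 7722 bp, while the PHF6 peak with the tallest summit was between 972 and 1449 bp. The next longest runs held 5 members each, and there were 8 of them. On chromosome 9 from 44112451 to 44152984 (qA5.2) the 5 summit pairs lay between 3 and 66 bp apart, with PHF6 heights of 34 to 58.

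H3K27me3 was absent from members by the rule but not from their neighbourhood. The nearest H3K27me3 peak was a median of 84.0 kb away (quartiles 27.9 and 207). It was within 50 kb of 2523 members (37.1%, 36.0 to 38.3), against 30.9% of all H3K27ac peaks without H3K27me3. The share was 33.3% (31.7 to 34.9) for intermediate and 30.4% (29.5 to 31.2) for low peaks with PHF6. Tall peaks without PHF6 had 36.7% (31.3 to 42.3), an interval that holds the members' value. Among peaks 1500 to 2500 bp wide the shares were 36.0% (34.5 to 37.5) for members and 34.7% (32.3 to 37.1) for intermediate peaks, and their intervals overlapped. H3K27me3 had few peaks, and its list does not carry the setting without local lambda that the other lists name.

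Members differed in shape from the 311 tall H3K27ac peaks without PHF6. The latter had a median H3K27ac height of 253 (quartiles 224 and 289) and a width of 1860 bp. Within steps of H3K27ac height the members were wider in each, by differing amounts. A wider peak meets the required overlap of 1 bp with PHF6 more easily, so width is not independent of the rule. How much of the difference goes with this was not tested. The median widths of members and of peaks without PHF6 were 2053 and 1759.5 bp at 200 to 249 (n = 1264 and 146 peaks) and 2060 and 1898 bp at 250 to 299 (n = 1877 and 100 peaks). They were 2267.5 and 1858.5 bp at 300 to 349 (n = 2750 and 54 peaks) and 2741 and 2563 bp at 350 or more (n = 903 and 11 peaks). A score of 3000 or more was reached by 72.3% (67.0 to 77.2) of tall peaks without PHF6, against 97.6% of members. The gap narrowed up to a height of 349. The shares were 51.4% against 88.7% at 200 to 249, 89% against 99.04% at 250 to 299 and 94.4% against 99.96% at 300 to 349. At 350 or more, with 11 peaks without PHF6, they were 90.9% against 99.89%, so the gap did not narrow further.

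The members were spread over all 19 autosomes. Their density was 2.75 per Mb, ranging from 1.91 per Mb on chromosome 3 to 4.91 per Mb on chromosome 11. As a share of the H3K27ac peaks of a chromosome they varied less, from 18.7% to 23.5%. Median H3K27ac height by chromosome lay between 299.5 and 315, and median PHF6 height between 36 and 40. Light cytogenetic bands, which are gene-rich, held the summits of 3305 members (48.6%, 47.5 to 49.8), close to 49.9% of all H3K27ac peaks. Light bands make up 41.2% of autosome bases, so members were 1.18 times as frequent there as an even spread would give. Intermediate and low peaks with PHF6 lay in light bands more often, at 52.6% (51.0 to 54.3) and 53.0% (52.1 to 53.9).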

How the data were processed

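Per the submitters' processing notes, Bowtie2, SAMtools and MACS 1.4.0 were used with mouse build mm9; their order and options are not given in the sources used here. The names of the deposited lists give a threshold of 1e-6 for each and mark the PHF6 and H3K27ac lists as made without local lambda. The deposited peak lists hold the authors' score per peak, and the deposited summit lists hold the authors' signal, a whole-number pileup height. Its largest value was exactly 400 in all 3 lists, so heights may be capped, and ranks and differences among the tallest summits would then be compressed; this was not tested. The lists had 77749 (PHF6), 32388 (H3K27ac) and 5616 (H3K27me3) peaks. All peaks fitted within mm9 chromosome ends. Read totals are not given, so depth is unknown.

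Peaks and summits were joined by name, and positions are given 1-based. Of several PHF6 peaks on a member, the one with the tallest summit was used. Gaps were measured edge to edge. R 4.3.3 supplied mm9 cytobands (circlize 0.4.16) and the lengths of chromosomes (GenomeInfoDb 1.38.1). Overlaps, distances and shares were computed in Python 3.11.15 (pandas 2.3.3, scipy 1.17.1, numpy 2.4.6) with routines tested on simulated intervals. The named regions are the 10 members tallest by PHF6 and by H3K27ac (in part), the 5 widest, the 5 with most PHF6 peaks, the 5 lowest by PHF6 and the longest runs. Members at PHF6 heights of 100 or more and width windows were chosen after seeing the values. The members, classes and lists were chosen with earlier results of these data known. Sequence windows and genes were not analysed here, for lack of an mm9 reference.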

Additional observations from a re-analysis of the deposited data

How the results depend on the processing

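Of 76 recomputed values, 42 stayed within the counting interval or within 1.5 times the main count. They cover members alone and pairs with intermediate peaks. Against low peaks, the share with several PHF6 peaks turned from 7.20% against 1.73% to 1.22% against 4.50% in the width window, and pairs fell from 87.6% by PHF6 height to 49.5% by score. A height limit of 150 gave a median PHF6 height of 37 (main 38), 79.2% of pairs (80.2%) and 61.0% within 100 bp (62.3%). A limit of 250 gave 39, 83.3%, a median width of 2269 bp (2234) and 6.56% with several PHF6 peaks (7.20%). A limit of 300 left 3653 members and gave 41, 87.6%, 63.5%, 2376 bp and 6.49%. The pairs did not keep a fixed contrast. At 150 the intermediate peaks were those of height 50 to under 150. At 250 and 300 they stayed at 50 to under 200, and peaks from 200 to under the limit were in neither group. The share with several PHF6 peaks was 5.78% under a required overlap of 50% of the shorter peak, 5.92% for PHF6 summits inside and 5.43% at a PHF6 score of at least 100, where the median PHF6 height was 39. Pairs were 79.1% with H3K27me3 ignored and 59.1% by PHF6 score. The summit share was 41.4% within 50 bp and 77.2% within 200 bp. Neighbours were at 31.5% within 5 kb, 69.6% within 25 kb, 18.9% counting tall ones only and, chosen after seeing the data, 46.9% from summit to summit. H3K27me3 was at 11.0% within 10 kb and 54.7% within 100 kb. Peaks 1500 to 2500 bp wide, a choice made after seeing the data, gave 3852 members, a PHF6 height of 37, 77.5% of pairs, 66.2% within 100 bp, 1.22% with several PHF6 peaks, 44.8% with a neighbour and 36.0% near H3K27me3. The cause of the lower share by PHF6 score was not tested. No paired analysis was possible because there was only 1 library per antibody. Windows of genome sequence at summits were not run. Unknown depth limits which low PHF6 peaks were called.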
